A study of Homo sapiens and Mus musculus with 54 samples.

Results

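The 42 genes described here encode plasma proteins of coagulation, fibrinolysis and complement that the liver secretes. They were taken by name, 42 of the 19974 protein-coding genes that RefSeq places on the autosomes and chromosome X, and every entry of the HepG2 peak lists within 50 kb of one of their gene bodies was assigned to them. HepG2 is a human liver cancer cell line. Chromatin immunoprecipitation with sequencing (ChIP-seq) was run in it on the aryl hydrocarbon receptor (AhR), on C/EBPα and on H3K27ac, an acetylated histone residue found at active enhancers and promoters.

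All HepG2 libraries were labelled day 12. AhR was profiled in 2 libraries of cells deficient in vitamin B2 and 2 control libraries, C/EBPα likewise in 2 and 2, and H3K27ac in 5 and 5. A second H3K27ac experiment had 2 libraries of B2-deficient cells with an AhR inhibitor, 2 of B2-deficient cells with DMSO and 2 of control cells with DMSO. There were 6 input libraries. In B2-deficient cells 2 of them served, by their titles, AhR and C/EBPα alike, and the part of shared inputs in the overlap of these lists was not tested. Per the labels' protocols, cells for AhR and C/EBPα were fixed with DSG and then formaldehyde, and cells for H3K27ac with formaldehyde alone. The 4 lists used here hold positions only. No entry is tied to a library or a condition, so neither an effect of vitamin B2 deficiency nor one of the inhibitor was measured at these genes, and the read depth is unknown.

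Coagulation proceeds through serine proteases and cofactors that end in thrombin and fibrin, and plasmin later dissolves the clot. Complement is a related cascade that marks and lyses microbes after C3 and C5 are cleaved. Hepatocytes make most of the circulating components of both, and C/EBPα is among the liver factors known to act at their promoters. AhR is a ligand-activated factor that pairs with ARNT and recognises elements with the core GCGTG.

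AhR peaks lay at the start of most of these genes, usually together with a C/EBPα peak. A RefSeq promoter entry, covering 250 bases before to 50 bases after a start (300 bases in all), existed for 33 of the 42 genes. An AhR peak overlapped such a window in 22 of the 33, whereas 8.77% of the 15812 protein-coding genes in the table had one. A C/EBPα peak did so in 18 of 33 genes, against 12.4% of all genes in the table, and both peaks shared a window in 17 of 33, against 3.22%. The genes with no entry in the table were A2M, C1S, C3, C4A, C4B, C8G, SERPINC1, SERPINF2 and SERPING1. Counts by window leave these genes out, though some had an AhR peak at an end of the gene body. Such a peak crossed an end of A2M (chr12:9115909-9116236), SERPINC1 (chr1:173917320-173917543) and SERPINF2 (chr17:1742635-1742886). At C3 (chr19:6720699-6720943) and C8G (chr9:136945010-136945240) a peak lay just outside an end. Which end is the start was not assessed.

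**Figure D1:**
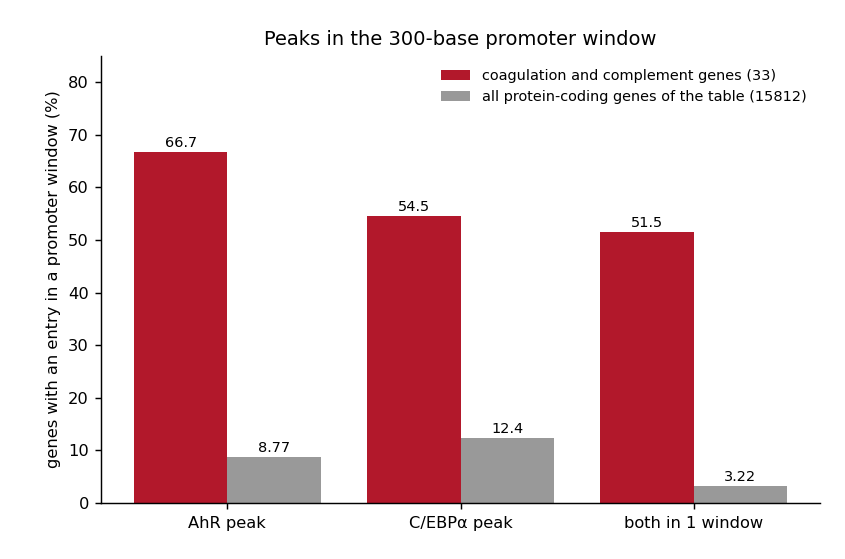
Share of genes with a deposited peak in at least 1 promoter window of 300 bases, for AhR, for C/EBPα and for both in 1 window. Red bars are the 33 coagulation and complement genes with a promoter entry and grey bars all 15812 protein-coding genes of the table; AhR reached 22 of the 33 genes, against 8.77% of all.

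The promoters that follow belong to genes whose window held both peaks, because these stretches are where AhR and C/EBPα peaks met. All are from RefSeq on GRCh38.p14, run 5′ to 3′ on the strand of the gene, and end at the base before the start. Capitals mark matches, on either strand, to GCGTG, to TTGCNNAA, a C/EBP pattern, or to GTTAAT, a partial site of the liver factor HNF1. The first 6 were chosen by a rule: AhR and C/EBPα peak in the window, then the highest merge number, then name. C4BPA, C4BPB and C8A lie on the plus strand and C6, CFI and CPB2 on the minus strand.
C4BPA: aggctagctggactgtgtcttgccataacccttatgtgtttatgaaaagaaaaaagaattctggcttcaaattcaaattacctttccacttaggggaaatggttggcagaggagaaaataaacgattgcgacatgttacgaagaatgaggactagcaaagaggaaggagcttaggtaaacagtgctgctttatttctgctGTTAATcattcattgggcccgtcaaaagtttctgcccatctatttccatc
C4BPB: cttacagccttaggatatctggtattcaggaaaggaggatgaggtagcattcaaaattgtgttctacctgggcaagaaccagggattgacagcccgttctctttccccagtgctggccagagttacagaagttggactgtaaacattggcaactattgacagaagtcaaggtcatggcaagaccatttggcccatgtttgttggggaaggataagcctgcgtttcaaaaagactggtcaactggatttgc
C6: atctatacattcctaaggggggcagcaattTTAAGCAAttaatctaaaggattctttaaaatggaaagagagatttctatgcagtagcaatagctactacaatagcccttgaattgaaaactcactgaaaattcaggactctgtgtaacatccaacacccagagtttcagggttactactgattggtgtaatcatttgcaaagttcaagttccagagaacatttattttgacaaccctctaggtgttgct
C8A: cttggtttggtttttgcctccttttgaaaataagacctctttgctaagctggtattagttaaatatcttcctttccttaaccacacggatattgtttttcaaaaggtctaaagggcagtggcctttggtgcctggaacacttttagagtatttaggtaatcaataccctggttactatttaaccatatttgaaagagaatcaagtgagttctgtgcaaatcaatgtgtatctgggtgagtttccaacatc
CFI: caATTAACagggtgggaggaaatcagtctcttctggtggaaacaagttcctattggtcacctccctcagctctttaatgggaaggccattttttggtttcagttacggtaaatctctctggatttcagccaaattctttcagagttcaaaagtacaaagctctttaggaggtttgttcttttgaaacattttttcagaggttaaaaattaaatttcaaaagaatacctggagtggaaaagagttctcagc
CPB2: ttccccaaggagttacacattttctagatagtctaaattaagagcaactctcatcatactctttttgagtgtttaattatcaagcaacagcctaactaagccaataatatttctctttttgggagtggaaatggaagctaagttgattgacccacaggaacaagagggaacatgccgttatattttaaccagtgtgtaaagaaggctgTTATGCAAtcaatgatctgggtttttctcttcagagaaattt

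The 6 genes span both cascades. C4BPA and C4BPB encode the chains of C4b-binding protein, which restrains the classical pathway, and CFI encodes the protease that inactivates C3b and C4b. C6 and C8A are parts of the membrane attack complex, and CPB2 encodes the carboxypeptidase TAFI, which slows fibrinolysis. The windows shown are chr1:207103983-207104232 for C4BPA, chr1:207088989-207089238 for C4BPB, chr5:41213533-41213782 for C6, chr1:56854547-56854796 for C8A, chr4:109802000-109802249 for CFI and chr13:46105034-46105283 for CPB2. None of the 6 held GCGTG in the 300 bases, although each overlapped an AhR peak. The match to TTGCNNAA began 220 bases before the start in C6 and 42 before it in CPB2, and GTTAAT began 50 before the start in C4BPA and 248 before it in CFI. The match of C6 lies outside both its AhR and its C/EBPα peak, while those of CPB2, C4BPA and CFI lie inside both. The windows of C4BPB and C8A held none of these letters, which says only that they are not in these windows.

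Both of the following promoters hold the AhR core, and they were added after the matches had been seen. F7 encodes coagulation factor VII, which starts the extrinsic pathway with tissue factor, and HRG encodes histidine-rich glycoprotein, a carrier that binds heparin and plasminogen. Both lie on the plus strand, at chr13:113105541-113105790 and chr3:186665764-186666013.
F7: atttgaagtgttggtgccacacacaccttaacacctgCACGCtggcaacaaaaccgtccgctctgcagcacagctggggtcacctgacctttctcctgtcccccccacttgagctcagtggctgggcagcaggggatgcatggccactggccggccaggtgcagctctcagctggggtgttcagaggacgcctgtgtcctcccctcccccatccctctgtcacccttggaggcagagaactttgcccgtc
HRG: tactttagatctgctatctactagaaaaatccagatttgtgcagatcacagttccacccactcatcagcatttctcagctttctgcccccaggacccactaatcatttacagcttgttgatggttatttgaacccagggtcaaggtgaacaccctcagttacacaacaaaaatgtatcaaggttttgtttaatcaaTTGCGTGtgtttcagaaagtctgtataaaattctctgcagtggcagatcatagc

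In F7 the core began 213 bases before the start, on the minus strand, and the centre of its AhR peak lay 8 bases before the start; the core lies outside that peak. In HRG it began 52 bases before the start, as part of the only match to the longer element TNGCGTG among the windows with an AhR peak of these genes; every match to TNGCGTG is also one to GCGTG. The AhR peak of HRG was centred 112 bases before the start and covers the match.

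Across the 23 windows of these genes with an AhR peak, GCGTG was present in 21.7%, against 51.1% of the 1531 windows of other genes with an AhR peak and 43.0% of all 22132 windows. TNGCGTG was present in 4.35%, against 11.3% and 6.28%. The C/EBP pattern TTGCNNAA was present in 21.7%, against 11.8% and 8.69%. GTTAAT, added after the sequences had been seen, was present in 30.4%, against 6.27% and 5.54%; the full HNF1 palindrome was in none of the 23. The windows of these genes also had less G and C: the median was 43.3% GC over the 23, within 29.3% to 60.3%, while windows of all genes with an AhR peak had a median of 63.3% and all windows 62.3%. Among the 590 AhR windows of other genes within that GC range, GCGTG was present in 30.3%, TNGCGTG in 6.61%, TTGCNNAA in 20.3% and GTTAAT in 12.2%. With 23 windows each match moves a share by several percentage points, and the part of base composition in these differences was not tested beyond this.

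The AhR core was present in the AhR windows of F7, HRG, F9, MBL2 and MASP1. MBL2, mannose-binding lectin, recognises microbial sugars, and MASP1 is a protease that acts with it. GTTAAT was present in those of F2, F13B, C4BPA, CFI, KLKB1, C5 and MBL2. TTGCNNAA was present in those of KNG1, KLKB1, C6, CPB2 and VTN. MBL2 held GCGTG and GTTAAT, and KLKB1 held TTGCNNAA and GTTAAT. A match in the window need not lie in the peak. The core lay inside the AhR peak in 3 of the 5 genes, HRG, F9 and MBL2, and GTTAAT in 6 of the 7, all but F13B. TTGCNNAA lay inside the AhR peak in 3 of its 5 genes (KNG1, CPB2 and VTN) and inside a C/EBPα peak in 2 (CPB2 and VTN).

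The AhR peaks counted at the starts had to overlap the window, which bounds how far from the start their centres could lie. The 22 genes had 22 distinct AhR peaks in their windows, and the centre of each lay upstream of the start. Centres ran between 344 and 8 bases before the start with a median of 97.5 bases. At the starts of other genes with an AhR peak in the window, the median was 93 bases before the start, and 83.8% of the nearest centres lay upstream. The 22 peaks thus lay much as the AhR promoter peaks of other genes did. How far the window sets the positions within its bounds was not tested. The centres at F13B, CFB, F11 and MASP1 lay 344, 336, 328 and 272 bases before the start, so these peaks reached the window with their edge only.

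**Figure D2:**
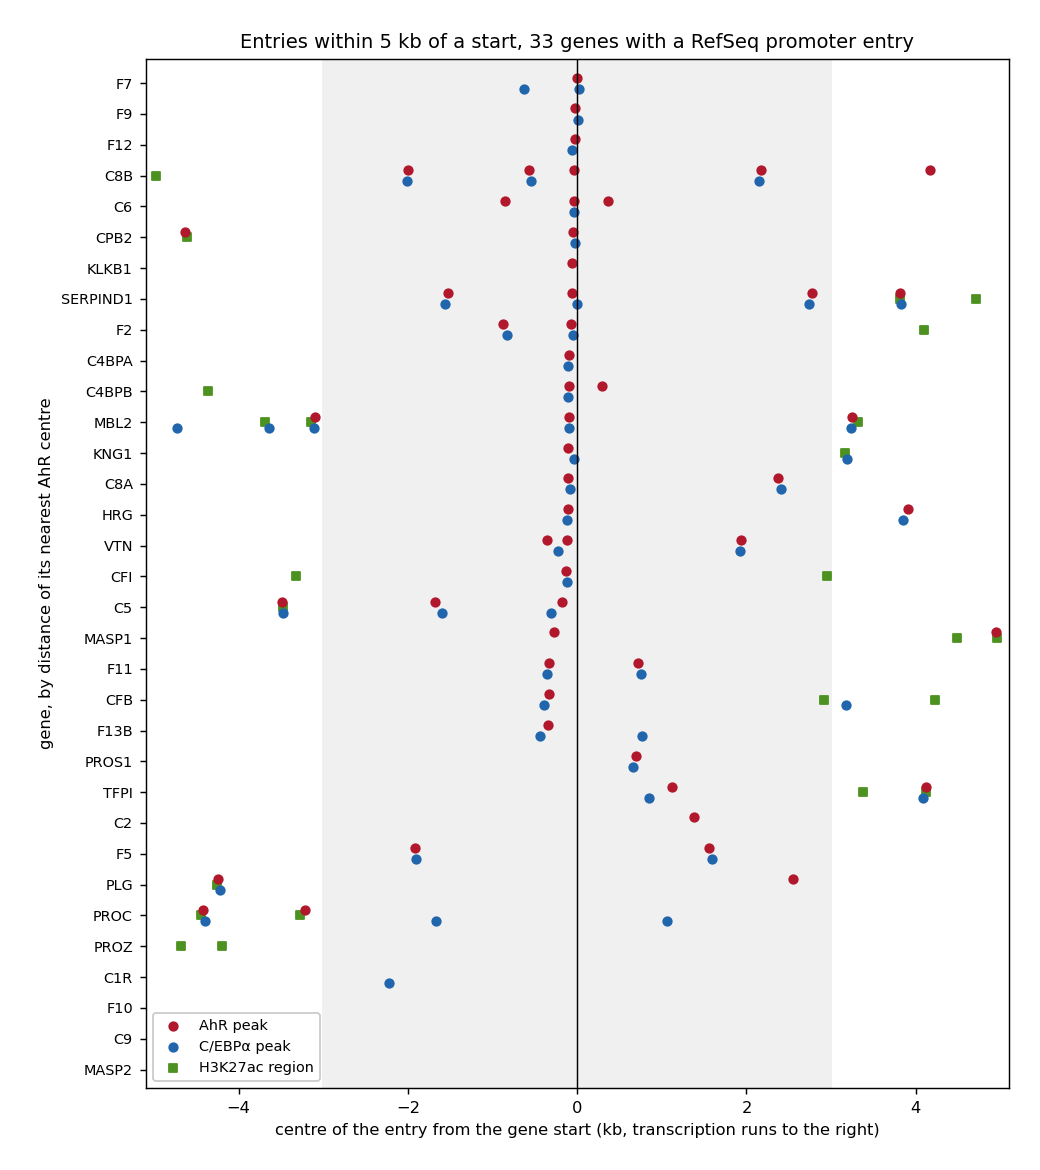
Centres of AhR peaks (red), C/EBPα peaks (blue) and main-list H3K27ac regions (green squares) within 5 kb of 1 start of each of the 33 genes, in kb from the start with transcription to the right and the zone within 3 kb shaded grey. For 22 genes an AhR centre sits just left of the line at 0, usually with a C/EBPα centre beside it, and green squares are nearly absent from the shaded zone.

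Entry names follow HOMER's scheme for merged peaks, and their last digit is taken as how many peaks went into the entry. By this merge number 18 of the 22 promoter AhR peaks combined 2 peaks, 81.8% (Wilson 95% interval 61.5 to 92.7), against 21.5% (19.4 to 23.7) of the 1351 promoter AhR peaks of other genes. The 4 with a merge number of 1 were at KLKB1, C5, VTN and F9. A C/EBPα peak overlapped 19 of the 22, 86.4% (66.7 to 95.3), against 36.6% (34.1 to 39.2) at other genes. The sources used here do not name the libraries behind the merged peaks. Intervals cover counting error over peaks only, and neighbouring peaks are not independent.

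Among the vitamin K-dependent procoagulants, 3 of 4 genes had an AhR peak in the window, and the same 3 had a C/EBPα peak there. F2, which encodes prothrombin, had its AhR peak at chr11:46719033-46719253 with the centre 70 bases before the start, and its C/EBPα peak 52 bases before the start. F7 had its AhR peak at chr13:113105676-113105891, centred 8 bases before the start, and its C/EBPα peak centred 26 bases after the start. F9, the gene of haemophilia B, had its AhR peak at chrX:139530614-139530819, centred 23 bases before the start, and a C/EBPα peak centred 8 bases after the start. For F9 these were the only AhR and the only C/EBPα peak within 50 kb, and neither H3K27ac list had a region within that distance. F10, factor X, had 8 AhR peaks within 50 kb but its nearest centre lay 16404 bases downstream of the start.

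Of the other coagulation and contact factors, 5 of 6 had an AhR peak in the window and 3 had a C/EBPα peak. F12 encodes the zymogen of the contact protease, KLKB1 prekallikrein and KNG1 high-molecular-weight kininogen, the substrate from which bradykinin is released. Their AhR centres lay 25, 60 and 105 bases before the start, at chr5:177409483-177409695, chr4:186227339-186227556 and chr3:186717047-186717461. F11, factor XI, and F13B, the carrier subunit of the fibrin-crosslinking factor XIII, had theirs at chr4:186265722-186266000 and chr1:197067496-197067713. F12, KNG1 and F11 also had a C/EBPα peak in the window. F5, the cofactor of factor Xa, had 11 AhR peaks within 50 kb, but its nearest centre was 1557 bases downstream of the start.

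Among the anticoagulants, 1 of the 5 with a promoter entry had an AhR peak in its window. It was SERPIND1, heparin cofactor II, with the peak at chr22:20773939-20774161 with the centre 63 bases before the start. PROC, protein C, had a C/EBPα peak centred 207 bases before its second start and no AhR peak in either window; its nearest AhR centre lay 3221 bases upstream of its first start. PROS1, the cofactor protein S, and TFPI, the inhibitor of the tissue factor pathway, had their nearest AhR centres 694 and 1122 bases downstream of a start. PROZ, protein Z, had its nearest 8255 bases upstream. SERPINC1 had no promoter entry and is outside this count. An AhR peak that overlapped a C/EBPα peak, at chr1:173917320-173917543, crossed an end of its gene body. The difference in count from the procoagulants was not tested.

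In fibrinolysis and among carriers, 3 of the 4 genes with a promoter entry had both peaks in the window. They were CPB2, HRG and VTN, vitronectin, an adhesive plasma glycoprotein. Their AhR peaks were at chr13:46104972-46105201, chr3:186665796-186666009 and chr17:28370317-28370530, centred 53, 112 and 116 bases before the start. PLG, plasminogen, had neither peak in its windows, and its nearest AhR centre lay 2554 bases downstream of a start. A2M and SERPINF2 had no promoter entry, and an AhR peak crossed an end of each gene body.

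In complement, 10 of the 14 genes with a promoter entry had an AhR peak in a window. All 3 regulators with an entry had both peaks there: C4BPA at chr1:207104019-207104261, C4BPB at chr1:207088966-207089325 and CFI at chr4:109801987-109802268, with AhR centres 93, 94 and 128 bases before a start. Of the terminal components, C6 had its AhR peak at chr5:41213446-41213693, C8A at chr1:56854572-56854805 and C8B at chr1:56965928-56966173, centred 37, 109 and 35 bases before the start. C8B had no C/EBPα peak in the window. C9, the pore-forming component, had no AhR centre nearer than 35175 bases upstream of its start.

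Both central and alternative pathway genes with an entry had an AhR peak in a window. The peak of C5, the precursor of the anaphylatoxin C5a, was at chr9:121050281-121050639, and that of CFB, the protease of the alternative convertase, was at chr6:31945641-31945878. Of the 5 initiation genes with an entry, MBL2 and MASP1 had one, at chr10:52771623-52771884 and chr3:187291894-187292124. C1R, a protease of the C1 complex, C2, a subunit of the classical convertase, and MASP2, the main protease of the lectin pathway, had none, with nearest centres 12438, 1375 and 63693 bases downstream of a start.

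RefSeq gives several starts for some genes. At C4BPB, C5, C6 and MBL2 the peaks lay at a start downstream of the outermost one. For C6 the outermost start had no AhR centre nearer than 14910 bases, while the inner start had one 37 bases upstream. With the outermost start alone, 18 of 33 genes had an AhR peak in the window, 54.5% (38.0 to 70.2), against 6.88% of all genes, and 39.4% had a C/EBPα peak, against 10.3%. Within 1 kb of any start, 23 of 33 genes had an AhR peak, against 15.7% of all genes. Among genes of the table with at least 7 AhR peaks within 50 kb, 17.0% had one in a window, so the share was also higher where peaks were many. The median distance from a start to the nearest AhR centre was 128 bases for the 33 genes and 12162.5 bases for all genes. For C/EBPα it was 315 and 7736.5 bases.

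H3K27ac regions were not found where these AhR peaks lay. None of the 33 genes had a main-list region in a promoter window, where 1.34% of all genes had one, and none of the 22 promoter AhR peaks overlapped a region. Regions near starts were scarce in the deposited lists for all genes. Over the genome the main list held 2371 regions with centres within 1 kb of the nearest start, so regions at starts were not wholly missing. It held 1186 at 2 to 3 kb from the nearest start and 3925 at 3 to 4 kb, a ratio of 3.31. The ratio was 3.34 in the list of the inhibitor experiment, where most regions are identical to regions of the main list. The AhR and C/EBPα lists had no such step, with ratios of 0.954 and 0.895. Acetylation within 3 kb of a start therefore cannot be judged from these lists. Within 3 kb of a start, 27 of the 33 genes had an AhR peak, against 26.9% of all genes, and 25 had a C/EBPα peak, against 36.0%. An H3K27ac region lay within 3 kb at 3 of the 33 (CFI, CFB and MBL2), against 6.06% of all genes, which is a count too small to set them apart.

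In the wider surroundings every one of the 42 genes had an AhR peak within 50 kb, but so did 85.4% of all protein-coding genes. All 42 had a C/EBPα peak (background 88.6%), and all but F9, 41 of 42, had a region in the main H3K27ac list (90.4%) and in the inhibitor-experiment list (88.1%). These shares are near those of all genes and separate the 42 little. Within 10 kb, 38 of 42 had an AhR peak, against 64.6% of all genes, and 40 had a C/EBPα peak, against 70.8%. The 4 genes with no AhR peak within 10 kb were MASP2, SERPING1, the C1 inhibitor, and the complement C4 genes C4A and C4B. C4A and C4B are near-identical copies, reads from one can align to the other, and their values are uncertain.

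The number of peaks separated the genes more than their presence did. The median was 7 AhR peaks within 50 kb for the 42 genes (range 1 to 22) and 4 for all genes. At least 4 were found at 37 of the 42, against 51.4% of all genes. C/EBPα had medians of 7 and 4, main-list H3K27ac of 11 and 7, and the inhibitor-experiment list of 10 and 6. Per 100 kb of window, which allows for gene length, the AhR medians were 5.34 and 2.58, the C/EBPα medians 5.86 and 2.94, and the main-list H3K27ac medians 7.87 and 4.72.

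**Figure D3:**
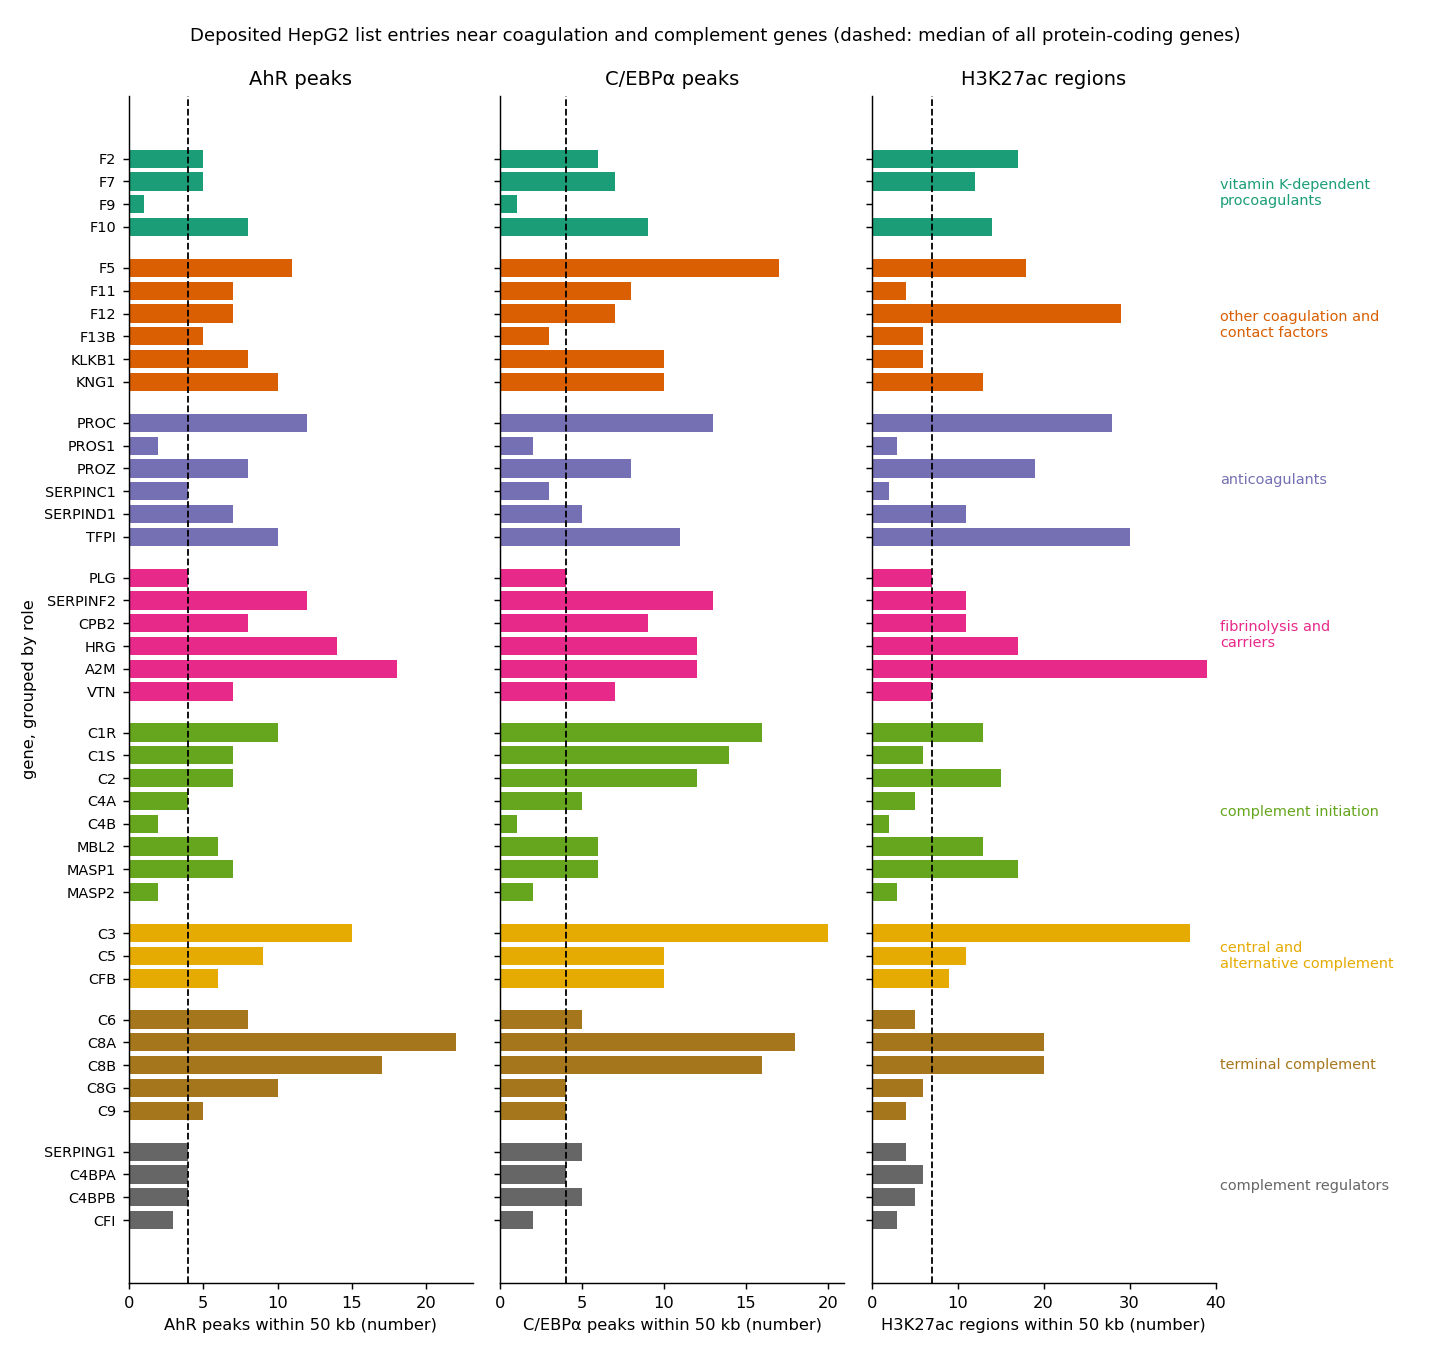
Entries within 50 kb of each of the 42 genes (number), in 3 panels for AhR peaks, C/EBPα peaks and main-list H3K27ac regions, with genes grouped and coloured by role and the dashed line at the median of all protein-coding genes. C8A had the most AhR peaks (22), C3 the most C/EBPα peaks (20) and A2M the most H3K27ac regions (39), while F9 had 1, 1 and 0.

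C8A (chr1:56854797-56918223) had the most AhR peaks, 22, of which 11 lay in the gene, together with 18 C/EBPα peaks and 20 H3K27ac regions. Its neighbour C8B, which encodes another chain of C8, had 17 AhR peaks. The pair shares its surroundings and together had 23 distinct AhR peaks, or 10.9 per 100 kb. A2M (chr12:9067708-9116229), a broad protease inhibitor that also traps plasmin, had 18 AhR peaks and 39 H3K27ac regions, 30 of them inside the gene, and the highest AhR density of any locus, 12.1 per 100 kb. C3 (chr19:6677704-6720650), the central component of complement, had 15 AhR peaks, 20 C/EBPα peaks and 37 H3K27ac regions, 24 of them inside the gene.

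HRG had 14 AhR peaks, and the locus it shares with KNG1 held 21 distinct ones, or 11.8 per 100 kb. PROC (chr2:127418427-127429242) had 12 AhR peaks, 10.8 per 100 kb, with 28 H3K27ac regions. SERPINF2 (chr17:1742871-1755265), which encodes α2-antiplasmin, had 12 AhR peaks, 10.7 per 100 kb, and F5 (chr1:169511951-169586481) had 11. TFPI had 10 AhR peaks and 30 H3K27ac regions, 23 of them inside the gene. C8G, the third C8 chain, had 10 AhR peaks but 4 C/EBPα peaks and 6 H3K27ac regions. F12 had 7 AhR peaks and 29 H3K27ac regions. C1R and C1S, which encode the C1 proteases, had 16 and 14 C/EBPα peaks beside 10 and 7 AhR peaks.

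At the low end F9 had 1 AhR peak, PROS1, MASP2 and C4B had 2 each and CFI had 3. The counts were lowest in number and narrowest in range among the complement regulators, with a median of 4 AhR peaks (3 to 4), yet all 3 of them with a promoter entry had both peaks in a window. Some genes with many peaks nearby had none at the start: F10, C1R, PROC, F5 and TFPI had 8 to 12 AhR peaks within 50 kb and none in a window. By role the median AhR count was 10 for terminal complement and for fibrinolysis and carriers, 9 for the central and alternative complement genes, 7.5 for the anticoagulants and for the other coagulation and contact factors, 6.5 for complement initiation and 5 for the vitamin K-dependent procoagulants. These ranges overlapped, except that each regulator, with 3 or 4 AhR peaks, lay below every gene of the terminal, the central and alternative, and the other coagulation and contact groups, where the fewest were 5.

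The 42 genes are not independent units. They fall into 32 loci with windows that do not overlap, and 17 of them share 7 loci. Besides C8A with C8B and HRG with KNG1, these were C2, CFB, C4A and C4B (9 distinct AhR peaks), F7, F10 and PROZ (9), C1S and C1R (10), KLKB1 and F11 (8), and C4BPB and C4BPA (4). Counted once, 266 AhR peaks lay within 50 kb of the genes, which is 0.469% of the 56739 in the list. There were 274 C/EBPα peaks of 62761, 434 main-list H3K27ac regions of 106666 and 412 inhibitor-experiment regions of 97145.

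A C/EBPα peak overlapped 56.8% (50.8 to 62.6) of the 266 AhR peaks near the genes and 55.3% of the rest of the AhR list, where overlap means at least 1 shared base. The rest is every other peak of the list and was not limited to peaks within 50 kb of a gene. The centres of overlapping pairs lay a median of 24 bases apart near the genes and 21 bases apart in the rest. An H3K27ac region overlapped 52.6% (46.6 to 58.6) of the AhR peaks near the genes and 70.8% of the rest. C/EBPα without H3K27ac was the class in which the genes exceeded the rest most, with 28.2% against 14.2%, and both together made 28.6% against 41.2%.

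**Figure D4:**
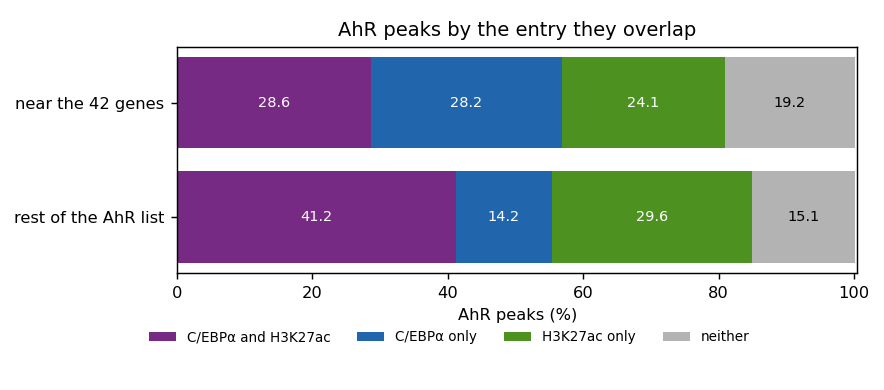
AhR peaks within 50 kb of the 42 genes (266 peaks, upper bar) and in the rest of the AhR list (lower bar), divided by whether they overlap a C/EBPα peak, an H3K27ac region, both or neither, in percent. The share with C/EBPα alone was 28.2% near the genes, against 14.2% in the rest.

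This shortfall of H3K27ac went with the distance to starts. Near the genes 35.3% of AhR peaks had a centre within 3 kb of a start, against 12.8% in the rest. Only the first set was chosen by nearness to genes, and the part of this choice in the difference was not tested. Beyond 3 kb, 74.4% (67.4 to 80.4) of the AhR peaks near the genes overlapped an H3K27ac region and 78.3% of the rest did. Within 3 kb, the shares were 12.8% and 19.3%. C/EBPα overlapped 62.8% of the AhR peaks near the genes within 3 kb of a start, against 50.5% of the rest, and 53.5% beyond 3 kb, against 56.1%. In the other direction an AhR peak overlapped 54.7% of the C/EBPα peaks near the genes, against 50.1% of the rest. AhR peaks overlapped 32.0% of the H3K27ac regions near the genes, against 37.8% of the rest.

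Merged AhR peaks, with a merge number of 2 or more, made up 43.2% near the genes and 42.3% in the rest. The share was thus high at the starts of these genes and near that of the list in their surroundings as a whole.

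The list of the inhibitor experiment differed little from the main H3K27ac list at these genes. Of the 434 main-list regions, 406 had identical coordinates in it, 93.5% (90.8 to 95.5), against 87.4% in the rest. The 28 others overlapped no region of the inhibitor-experiment list. Regions near the genes thus matched to the base or not at all. Whether the lists were called separately is not stated, so the match cannot be read as agreement between independent experiments. The 28 lay near 19 of the 42 genes, where 54.6% of all genes had at least 1 such region, so the 42 did not exceed the background. MASP1 had the most, 5 of its 17 regions, and F5 had 4 of 18. MASP2, MBL2, PROS1 and F12 followed with 2 each, which left MASP2 and PROS1 with 1 region in the inhibitor-experiment list, against 3 in the main list. An AhR peak overlapped 6 of the 28, 21.4%, against 23.2% of such regions in the rest of the list. Conversely 6 regions, near C8A, KNG1, MASP1, KLKB1, C9 and C8G, were in the inhibitor-experiment list alone, and none of these 6 overlapped an AhR peak, where 9.37% of such regions in the rest of the list did. The inhibitor-experiment list is named for an experiment that also had vehicle libraries, so a region absent from it cannot be read as one lost with the inhibitor.

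The liver label of the cells was set against marker genes. All 8 hepatocyte markers (ALB, APOA1, APOB, TTR, HNF4A, SERPINA1, TF and AFP) had 14 to 37 AhR peaks within 50 kb, 179 in sum, and 10 to 61 main-list H3K27ac regions, 337 in sum. ALB and AFP are neighbours with 36 and 37 AhR peaks and 61 and 59 regions, and entries they share are counted for each. The hepatocyte sums also cover 8 genes and those of the other groups 4 each, so the sums are not on 1 scale. The 4 endothelial markers (PECAM1, CDH5, KDR and TEK) had 0 to 17 AhR peaks, 30 in sum, and KDR had no entry in any of the 4 lists. The 4 leukocyte and macrophage markers (PTPRC, CD14, CD68 and CD163) had 1 to 9, 19 in sum, and the 4 stellate and fibroblast markers (COL1A1, COL1A2, PDGFRB and DES) had 1 to 6, 13 in sum. Of the 5 hepatocyte markers with a promoter entry, ALB, SERPINA1 and TF had an AhR peak in the window. So did CD14 and CD68 among the 4 leukocyte and macrophage markers, all of which had an entry, but neither of the 2 endothelial markers nor the 1 stellate and fibroblast marker with one. Such peaks were confined neither to the coagulation and complement genes nor to hepatocyte genes. In the main H3K27ac list the endothelial markers had 0 to 41 regions, the leukocyte and macrophage markers 1 to 6 and the stellate and fibroblast markers 8 to 21, with sums of 61, 13 and 56. The ranges of the endothelial and the stellate and fibroblast markers overlapped that of the hepatocyte markers. Peak positions are not expression, which was not analysed here.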

How the data were processed

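ChIP-seq peak lists of HepG2 cells were analysed. The authors deposited lists of positions, with a name, chromosome, start, end and strand sign and no count, score or other value for a library. Per the submitters' processing notes, Bowtie2 and HOMER and the builds hg38 and mm10 were used, no version being named. Caller settings and the peak sets merged are not stated. The 2 mouse lists were not used here. Planned comparisons of conditions needed values per library and were left out, so no test was made. The read depth is unknown.

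Gene bodies and promoters came from RefSeq tables of GRCh38.p14, the assembly of hg38. Entries were assigned within 50 kb of a gene body; alternatives were 10 kb, 100 kb and the gene body. Overlap meant at least 1 bp; alternatives were 50% of the shorter entry and centres within 500 bp. Wilson intervals are at 95%. Motifs were searched on both strands of the 300 bases. The genes, pathway lists, markers and alternatives were chosen with earlier results of these data known. Genes named with positions were, by rule, the 8 with the most AhR peaks, those with an AhR peak in a promoter window, those with most regions absent from the inhibitor-experiment list, and at least 1 per role. Promoter alternatives, GTTAAT and the F7 and HRG sequences came after the data had been seen. The routines for overlap, for counts in a window, for the nearest gene and for nearness to a gene were first tested on simulated data. The matching of identical coordinates and the motif search were not. The tools were pandas 2.3.3, NumPy 2.4.6, SciPy 1.17.1 and Matplotlib 3.10.9 under Python 3.11.15.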

Additional observations from a re-analysis of the deposited data

How the results depend on the processing

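Of 58 alternatives over 12 results, 50 left the value within 1.5 times (counts) or within its Wilson interval (shares), including all 33 for counts of genes, and 8 moved a share. Several of the 33 could hardly move. Widening to 100 kb could only raise counts already at 41 or 42 of 42 genes, and leaving out the C8A and C8B locus removed only those genes. The rule for counts is also wide: genes with an inhibitor-experiment region fell from 41 to 28 with the gene body alone and still passed. Within 10 kb, C/EBPα overlapped 62.7% of AhR peaks, the share of C/EBPα peaks with AhR was 64.4%, and that of H3K27ac regions identical in the inhibitor-experiment list 95.8%. With merged entries only, AhR with C/EBPα was 77.4%, AhR with H3K27ac 59.1% and C/EBPα with AhR 71.6%. With AhR peaks at least 3 kb from every start that has a promoter entry, AhR with H3K27ac was 74.4%, an alternative chosen after seeing the data. With centres within 500 bp, H3K27ac with AhR was 37.6%. The causes of these moves were not tested. The H3K27ac lists have a step at 3 kb, and its part in the move to 74.4% was not tested either. No paired analysis was possible because the lists hold no value per library, and leaving out each replicate was not run for the same reason. The unknown depth limits what an absent peak can show.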

Other observations

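Another 44 genes of the same pathways, among them receptors, membrane regulators and the fibrinogen chains, were counted in the same way. An AhR peak lay within 50 kb of 36 of the 44, with a median of 3 peaks, and a C/EBPα peak near 36, with a median of 4. Over all protein-coding genes 85.4% had an AhR peak and 88.6% a C/EBPα peak at that distance, and both medians were 4. For AhR and C/EBPα the 44 thus did not exceed the background within 50 kb. Their median number of H3K27ac regions was 8.5 in the main list and 7.5 in the inhibitor-experiment list, against 7 and 6 for all genes, a difference not tested. In promoter windows the AhR and C/EBPα shares of the 44 were above those of all genes in the table. Of the 30 with a promoter entry, 6 had an AhR peak in a window, against 8.77% of all genes. A C/EBPα peak did so in 7 of the 30, against 12.4%, and neither difference was tested. The 6 with an AhR peak in a window were PLAU, C1RL, SERPINA10, FGA, FGB and FGG. The fibrinogen genes FGA, FGB and FGG, which share a locus and are made in the liver, had 14, 14 and 15 AhR peaks within 50 kb. Genes with none included CFHR3, FCN1, FCN2, FCN3, THBD, CR2 and C3AR1. THBD encodes thrombomodulin of the endothelium, and CR2 and C3AR1 encode receptors of immune cells.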
